A study of Mus musculus with 12 samples.

Results

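Rcan1 and the calcineurin-NFAT pathway were examined in mouse spleen as 7 genes, Rcan1, Nfatc1, Nfatc2, Nfatc3, Ppp3ca, Ppp3cb and Ppp3r1. A gene's members were all probe sets that the array's gene table assigns to that symbol alone, which gave 17 of the 22626 probe sets tested and 7 of the 12393 genes. Both Rcan1 probe sets carry the current symbol, not the older name Dscr1. The genes were picked with their intensities in the 4 groups already known, so their levels and differences are given as a description and without a p-value.

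The arrays came from 12 mice, 1 array per spleen, and the groups numbered 4 with 3 mice each. They were DUSP1-/- mice given lipopolysaccharide (LPS) of E. coli into the peritoneum, DUSP1-/- mice without treatment, DUSP1+/+ mice given LPS, and DUSP1+/+ mice without treatment, written below as knockout LPS, knockout control, wild-type LPS and wild-type control. The dose was 10 µg per g of body weight and the spleens were taken 6 h later. The product of Dusp1 dephosphorylates and so inactivates MAP kinases, and LPS is a bacterial cell wall component sensed through Toll-like receptor signalling. The age, strain and sex of the mice and the altered part of Dusp1 are not given in the sources used here, and the control mice are labelled as untreated.

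Calcineurin is a phosphatase that calcium and calmodulin switch on. It is made of a catalytic subunit, encoded by Ppp3ca, Ppp3cb or Ppp3cc, and a calcium-binding regulatory subunit, encoded by Ppp3r1 in most tissues. Active calcineurin strips phosphates from the NFAT transcription factors, which then enter the nucleus and, often beside AP-1, switch on cytokine and activation genes in lymphocytes and myeloid cells. Rcan1 encodes a protein that binds calcineurin and can inhibit it, and 1 of its transcripts is itself switched on by NFAT, which makes a feedback loop. The drugs ciclosporin and tacrolimus act by blocking calcineurin.

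Rcan1 has 2 annotated transcript starts in RefSeq on the mouse build GRCm38.p6, both on the minus strand of chromosome 16, 66091 bases apart. The 250 bases before each start are shown because the shorter transcript, from the downstream start, is the one known to answer to NFAT. Capitals mark 3 motifs searched on both strands, the NFAT core GGAAA, the AP-1 site TGANTCA and the cyclic AMP response element TGACGTCA. The upstream window is at chr16:92466170-92466419 and the downstream window at chr16:92400079-92400328.
Rcan1 upstream start: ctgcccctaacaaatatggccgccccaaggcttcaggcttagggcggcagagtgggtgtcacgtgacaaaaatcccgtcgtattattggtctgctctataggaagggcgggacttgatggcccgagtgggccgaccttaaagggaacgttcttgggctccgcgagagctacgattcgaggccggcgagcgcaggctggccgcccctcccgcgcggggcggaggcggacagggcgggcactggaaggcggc
Rcan1 downstream start: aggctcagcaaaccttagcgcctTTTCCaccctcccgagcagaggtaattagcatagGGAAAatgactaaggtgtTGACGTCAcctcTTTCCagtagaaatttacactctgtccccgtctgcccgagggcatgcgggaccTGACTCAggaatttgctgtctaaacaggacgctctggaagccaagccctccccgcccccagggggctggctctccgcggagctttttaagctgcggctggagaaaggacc
The upstream window held none of the 3 motifs. The downstream window held 3 NFAT cores, whose first bases lie 227, 193 and 163 bases before the start, 1 cyclic AMP response element at 175 bases and 1 AP-1 site at 110 bases, and no 2 of these overlap. Among 32851 such windows in the table, 6.39% held at least 3 NFAT cores, 6.75% held an AP-1 site and 1.55% held the cyclic AMP response element. All 3 motifs stood together in 10 windows, or 0.0304%. The motifs were chosen knowing the Rcan1 sequence, so these shares only describe it, and a match is not evidence that a factor binds.

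Of the 7 members, 5 had windows in that table, 8 in all, and Nfatc1 and Ppp3ca had none. The upstream window of Nfatc2 and the window of Ppp3cb held 3 NFAT cores each. The downstream window of Nfatc2 and the upstream window of Nfatc3 held 1 each, and the downstream window of Nfatc3 and that of Ppp3r1 held none. Outside Rcan1 no member's window had an AP-1 site or a cyclic AMP response element by these letters. RefSeq places the 7 genes on different chromosomes, 16 for Rcan1, 18, 2 and 8 for Nfatc1, Nfatc2 and Nfatc3, and 3, 14 and 11 for Ppp3ca, Ppp3cb and Ppp3r1.

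The values are probe set intensities on a linear scale, of which 30.84% lay under 20. Lymphocyte markers were read in all arrays, which does not by itself tell spleen from other lymphoid tissue. The mean log2 intensity of 7 B cell markers ran from 8.66 to 10.04 over the 12 arrays and that of 9 T cell markers from 7 to 8.74. Transcripts of neighbouring organs were uneven. The mean of 6 pancreas markers was 11.84 and 8.91 in knockout controls 1 and 3 and 12.97 in wild-type control 1, against 4.22 to 5.71 in the other 9 arrays. Wild-type controls 2 and 3 had the pattern of male tissue, with Xist at 35 and 47 (1101 to 3949 in the other arrays) and Eif2s3y of the Y chromosome at 316 and 53 (7 to 10 in the other arrays). Dusp1 read 4963, 2948 and 4996 in knockout spleens given LPS and 677, 1528 and 1443 in knockout controls, against 2248, 2142 and 2116 in wild-type LPS arrays and 479, 1354 and 627 in wild-type controls. It was not lower under the knockout label, and the position of its probe set relative to the altered part is unknown, so every genotype direction rests on the labels.

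Rcan1 was high in 1 group, the knockout spleens after LPS. Its brighter probe set, 1416600_a_at, read 844, 1168 and 646 in knockout spleens given LPS and 239, 201 and 329 in knockout controls. The same probe set read 153, 190 and 181 in wild-type LPS arrays and 193, 209 and 315 in wild-type controls. Every knockout LPS array lay above every other array, and every wild-type LPS array lay below every wild-type control, by a narrow margin.
The second probe set, 1416601_a_at, read 339, 455 and 204 in knockout spleens given LPS and 74, 45 and 48 in knockout controls. In wild-type spleens it read 54, 74 and 64 after LPS and 17, 53 and 98 in controls. Again the knockout LPS arrays stood above all others, and the remaining groups overlapped. In this bulk RNA, a change in the number of cells of a type and a change in transcript per cell cannot be told apart. In both probe sets the second knockout LPS mouse was the highest and the third the lowest of its group.

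By group, the brighter Rcan1 probe set averaged 886 ± 264 in knockout LPS and 256 ± 65.7 in knockout control, and 175 ± 19.3 in wild-type LPS and 239 ± 66.3 in wild-type control (SD, n = 3 each). The order from the top was knockout LPS, knockout control, wild-type control and wild-type LPS, and its first step exceeded the spread within groups. The knockout and wild-type controls differed by less than their SD. Wild-type LPS lay under wild-type control by about 1 SD of the controls, and the groups just failed to overlap, with 190 as the highest LPS value and 193 as the lowest control value. The other probe set averaged 333 ± 126 in knockout LPS, 55.7 ± 16 in knockout control, 64 ± 10 in wild-type LPS and 56 ± 40.6 in wild-type control, and there the last 3 did not differ beyond their spread.

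**Figure D1:**
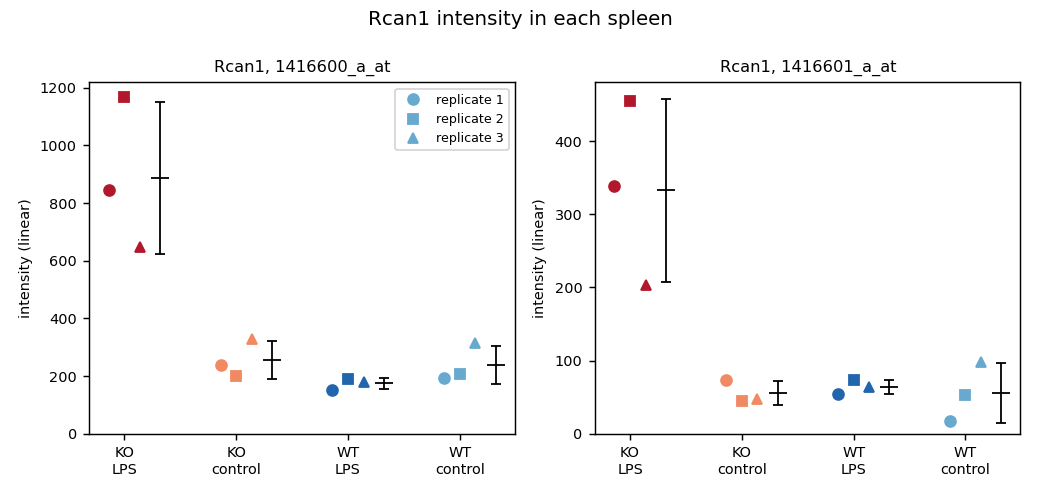
Intensity on a linear scale of the 2 Rcan1 probe sets in each of the 12 spleens, by genotype (KO, WT) and treatment, with replicates as symbols and the mean ± SD of 3 mice in black. The knockout LPS spleens, at 646 to 1168 on the left and 204 to 455 on the right, lie above all others.

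On the log2 scale the LPS response of Rcan1 in knockout spleen, asking what LPS did where Dusp1 is labelled absent, was 1.78 ± 0.27 by the brighter probe set, a 3.43-fold higher level. The value after ± here and below is limma's standard error of a difference between groups of 3. The dimmer set gave 2.54 ± 0.54, or 5.82-fold. In wild-type spleen the 2 sets disagreed, at -0.42 ± 0.27 by the brighter and 0.51 ± 0.54 by the dimmer set, where 1 wild-type control read 17. After LPS, knockout exceeded wild-type by 2.31 ± 0.27 (4.95-fold) and 2.31 ± 0.54 (4.97-fold). In controls the genotypes differed by 0.10 ± 0.27 and 0.29 ± 0.54. The difference between the LPS responses of the genotypes was 2.20 ± 0.39 and 2.03 ± 0.76. Ranked from the most positive difference among 12393 genes, Rcan1 was number 12 for knockout over wild-type after LPS and number 337 for the LPS response in knockout spleen. Rcan1 was picked with these values known, so the ranks only describe it. Putting all arrays on one median adds 0.21 to every LPS difference in knockout spleen and 0.12 in wild-type spleen, and no more than 0.03 between genotypes after LPS.
The 2 probe sets followed each other over the 12 arrays (Pearson r = 0.88, Spearman rho = 0.61), and their deviations from the group means had r = 0.67. These correlations describe 2 readings of the same RNA and are not a test. The suffix of both IDs marks probes that fit alternative transcripts of the gene, so these readings do not tell which start the transcripts came from.

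Of 11 marker lists for cell types and neighbouring organs, those of macrophages and endothelium did not overlap between the LPS groups, and the part of the lists in the Rcan1 difference was not tested. The mean log2 intensity of 8 macrophage markers was 8.52, 8.92 and 8.74 in knockout spleens after LPS, against 8.25, 8.11 and 8.11 in wild-type spleens after LPS. It was 9.65 to 10.09 in knockout controls and 10 to 10.39 in wild-type controls. The mean of 8 endothelial markers was 6.38, 6.87 and 6.42 in knockout spleens after LPS, against 6.37, 6.15 and 6.14 in wild-type spleens after LPS, and 6.46 to 7.18 in knockout controls and 6.68 to 7.11 in wild-type controls. Within the knockout LPS group both lists were highest in the mouse with the most Rcan1, but this was not particular to them. The T cell, neutrophil, stroma, erythroid, pancreas, liver and striated muscle lists were highest in that mouse too, and only the B cell and lung lists were not. The mean of 6 lung markers was 7.01, 4.59 and 6.27 in knockout LPS and 5.07, 4.53 and 4.60 in wild-type LPS, and that of 6 liver markers was 6.89, 9.58 and 8.71 in knockout LPS and 6.75, 8.62 and 6.40 in wild-type LPS. Both of these lists overlapped between the genotypes. Between the genotypes after LPS limma called 0 of 8 macrophage, 0 of 8 endothelial, 0 of 6 lung and 0 of 6 liver markers, against 0.318% of all probe sets. The macrophage difference was uneven, at 2.12 for Slc40a1, 1.16 for Cd5l and 0.66 for Csf1r. The remaining macrophage markers ran from -0.05 (Mertk) to 0.32 (Cd163). The endothelial markers ran from -0.31 (Kdr) to 1.26 (Stab2), with Pecam1 at 0.10, Eng at 0.08 and Emcn, near the floor, at 0.04. With LPS, 0 macrophage markers rose and 4 fell in each genotype, while 1 endothelial marker rose and 3 fell in knockout spleen, and 0 rose and 2 fell in wild-type spleen. Of all genes, 5.54% were called higher and 9.71% lower with LPS in knockout spleen, and 3.93% and 4.16% in wild-type spleen.

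The NFAT factors had other profiles. Nfatc1, a factor of activated lymphocytes and of osteoclasts, read 207, 285 and 224 by probe set 1417621_at in knockout spleens given LPS and 157, 413 and 366 in knockout controls. It read 150, 191 and 161 in wild-type LPS arrays and 331, 281 and 581 in wild-type controls. All wild-type LPS arrays were below all wild-type controls (-1.18 ± 0.37), the knockout groups overlapped (-0.28 ± 0.37), and after LPS every knockout array was above every wild-type array (0.51 ± 0.37). The other Nfatc1 set, 1425761_a_at, read 160, 154 and 150 in knockout LPS, 107, 413 and 221 in knockout control, 111, 150 and 127 in wild-type LPS and 117, 240 and 462 in wild-type control, with overlap in each comparison. The B cell list averaged 8.66 to 8.93 in knockout LPS against 8.87 to 10.01 in knockout control, and 8.83 to 9.30 in wild-type LPS against 9.65 to 10.04 in wild-type control. The T cell list averaged 7.37 to 7.80 in knockout LPS against 7.15 to 8.74 in knockout control, and 7 to 7.73 in wild-type LPS against 8.11 to 8.67 in wild-type control. The part of these lists in the Nfatc1 and Nfatc3 differences was not tested.

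Nfatc3, which acts in thymocytes and T cells, was lower after LPS in both genotypes. Probe set 1419976_s_at read 260, 246 and 268 in knockout LPS and 315, 456 and 488 in knockout control, a difference of -0.68 ± 0.22. In wild-type spleen it read 374, 235 and 255 after LPS and 514, 595 and 572 in controls, a difference of -0.99 ± 0.22. LPS and control arrays did not overlap in either genotype, the LPS groups of the genotypes overlapped (-0.13 ± 0.22), and knockout controls were all below wild-type controls (-0.44 ± 0.22). The dimmer set 1452497_a_at gave -0.86 ± 0.39 in knockout and -0.44 ± 0.39 in wild-type spleen, with overlap in wild-type only.
Nfatc2, the main NFAT of resting T cells, was dim in all 4 of its probe sets. They ran from 11 to 44 over all arrays, and their means lay between the 15.7th and the 40.1st percentile of all probe sets. The set with the most movement, 1426032_at, read 41, 37 and 44 in knockout LPS, 38, 18 and 17 in knockout control, 27, 38 and 33 in wild-type LPS and 41, 21 and 30 in wild-type control. Its LPS difference was 0.84 ± 0.32 in knockout and 0.13 ± 0.32 in wild-type spleen, the groups overlapping in both.

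**Figure D2:**
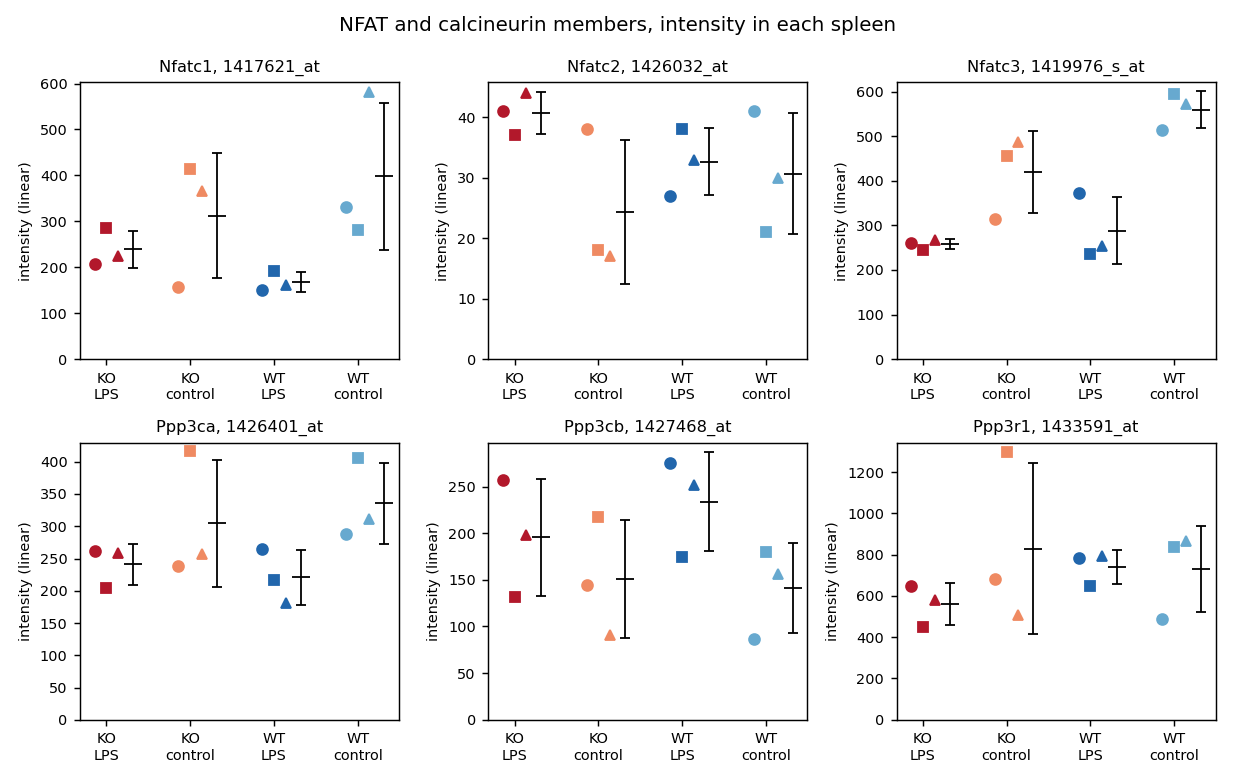
Intensity on a linear scale of 1 probe set for each of the 6 other members in each spleen, by genotype (KO, WT) and treatment, with circles, squares and triangles for replicates 1, 2 and 3 and the mean ± SD of 3 mice in black. Nfatc3 is lower in the LPS spleens of both genotypes (235 to 374) than in most controls (315 to 595), and in no panel do the knockout LPS spleens stand above all 9 others.

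The calcineurin subunits had smaller differences than Rcan1 between knockout LPS and the other groups. Ppp3ca encodes the alpha catalytic subunit, and its 3 probe sets gave LPS differences from -0.30 ± 0.25 to 0.13 ± 0.24 in knockout spleen, with overlap. In wild-type spleen these were -0.61 ± 0.25, -0.46 ± 0.34 and -0.46 ± 0.24, and for all 3 the LPS arrays lay below the controls. By 1426401_at the intensities were 261, 204 and 258 in knockout LPS and 239, 417 and 257 in knockout control, against 265, 216 and 181 in wild-type LPS and 288, 406 and 312 in wild-type control. After LPS the genotypes were apart by 1452056_s_at alone, at 309, 250 and 321 in knockout against 224, 205 and 215 in wild-type arrays (0.44 ± 0.24).
Ppp3cb encodes the beta catalytic subunit. Its set 1427468_at read 257, 132 and 198 in knockout LPS and 145, 217 and 91 in knockout control (0.41 ± 0.38), and 275, 174 and 252 in wild-type LPS and 87, 180 and 156 in wild-type control (0.77 ± 0.38). The groups overlapped in each comparison, as they did for its other set, 1433835_at, whose differences ran from -0.25 ± 0.31 to 0.48 ± 0.31.
Ppp3r1, the regulatory subunit, had the brightest member probe set by percentile (1433591_at, the 91.7th percentile of all probe sets). It read 650, 451 and 578 in knockout LPS, 683, 1296 and 507 in knockout control, 783, 646 and 795 in wild-type LPS and 490, 835 and 866 in wild-type control. The groups overlapped in each LPS comparison, and differences ran from -0.47 ± 0.34 to 0.11 ± 0.34. The dim set 1421786_at ran from 24 to 135 with overlap throughout, and its standard error was 0.63.

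By the fit's threshold, an adjusted p of 0.05, 2 of the 17 member probe sets were called higher in knockout LPS over knockout control, both of Rcan1, where 12.7% of all probe sets were called, 5.13% higher and 7.55% lower. In wild-type LPS over control, 1 of 17 was called, Nfatc3 lower by 1419976_s_at, where 6.59% of all were called, 3.2% lower and 3.39% higher. Between knockout and wild-type after LPS, 1 of 17 was called, Rcan1 higher by 1416600_a_at, where 0.318% of all were called, 0.168% higher and 0.15% lower. In controls and in the difference of the LPS responses 0 of 17 were called, and limma called 0% of all probe sets there, with 337 and 1230 of 22626 at an unadjusted p under 0.05. Higher calls made up 40.4% of all calls in the knockout LPS response and 60.7% with the arrays on one median, and 51.4% and 62.8% in the wild-type LPS response. Since the members were picked on these contrasts, nothing is read from these counts.
Groups of 3 arrays lay apart upward for 2 of 17 sets in the knockout LPS response (11% of all probe sets) and downward for 2, both of Nfatc3 (15.2%). In wild-type spleen they lay apart downward for 6 (12.6%) and upward for 0 (9.6%). Between genotypes after LPS they lay apart upward for 4 (8.08%) and downward for 0 (8.77%), and in controls downward for 1 (1.01%) and upward for 0 (1.45%). Leaving Rcan1 aside, the 15 other sets had genotype differences after LPS from -0.46 to 0.51.

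**Figure D3:**
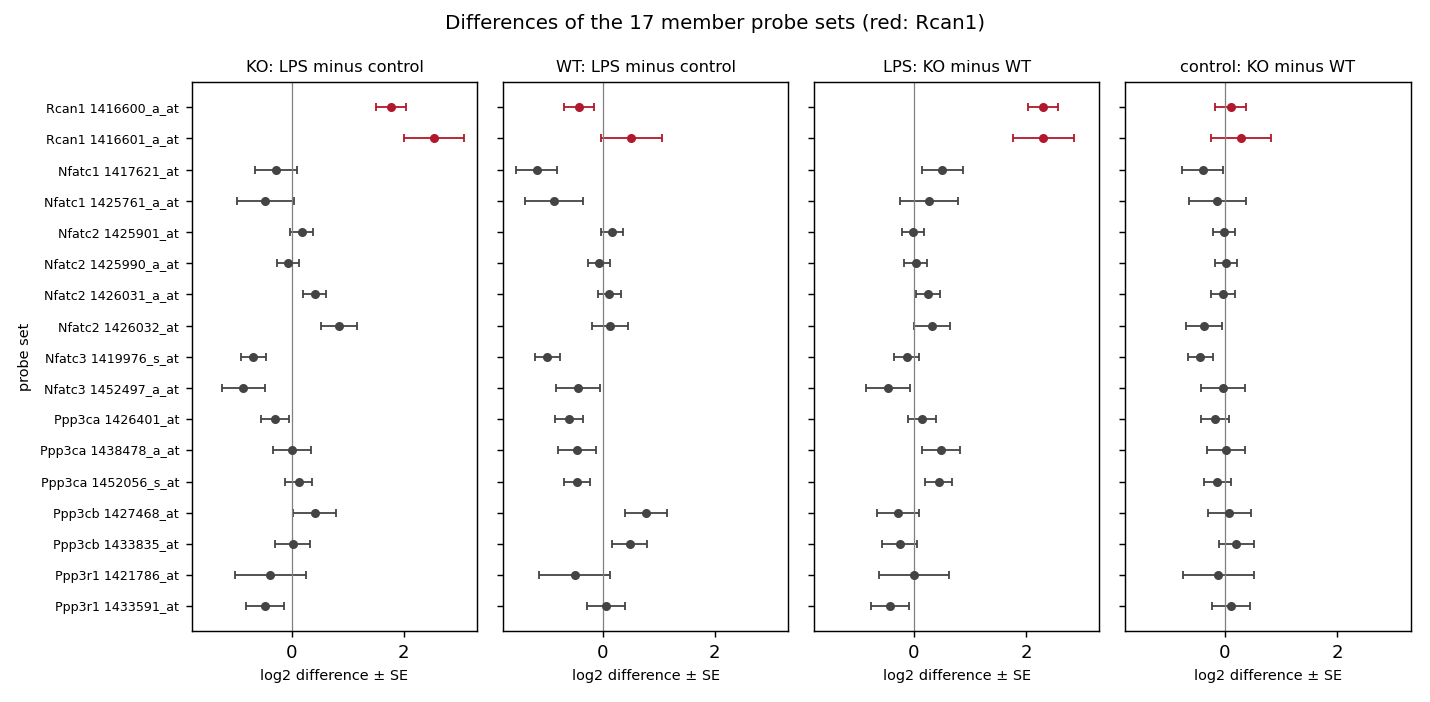
Log2 differences with limma's standard error for the 17 member probe sets in 4 comparisons, LPS minus control in knockout (KO) and wild-type (WT) spleen and knockout minus wild-type after LPS and in controls. Rcan1 (red) lies at 1.78 and 2.54 in the first panel and at 2.31 in the third, while the other 15 sets stay between -1.18 and 0.84 in all 4.

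The remaining genes of the pathway came from 5 lists written from textbook knowledge, of which 50 of 67 genes were measured by a probe set naming that gene alone. These were tested with limma over all probe sets, and 1 probe set stood for each gene. In knockout spleen 7 rose and 3 fell with LPS, or 20%, where 15.2% of all genes were called (5.54% higher, 9.71% lower). In wild-type spleen 5 rose and 2 fell, or 14%, where 8.09% of all genes were called (3.93% higher, 4.16% lower). Between genotypes after LPS 1 was higher in knockout, or 2%, where 0.363% of all genes were called (0.218% higher, 0.145% lower). In controls and in the difference of the LPS responses limma called 0 of 50, and 0% of all genes. The shares over all genes given here are also the background for the counts of each list below.

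Of 4 measured calcineurin partners, which are subunits, inhibitors and drug-binding proteins, 0 rose and 1 fell in knockout spleen and 0 rose and 2 fell in wild-type spleen (median 0.03 and -0.39, all genes -0.06 and -0.03). Rcan3, a relative of Rcan1 that also binds calcineurin, read 14, 17 and 17 in knockout LPS and 25, 60 and 40 in knockout control, and fell (-1.30 ± 0.29, limma adjusted p = 0.0152). In wild-type spleen it read 16, 15 and 11 after LPS and 27, 35 and 37 in controls, and fell (-1.24 ± 0.29, adjusted p = 0.0297). Rcan2, another relative, fell in wild-type spleen, with 14, 20 and 11 after LPS and 39, 39 and 29 in controls (-1.28 ± 0.30, adjusted p = 0.0296). In knockout spleen Rcan2 read 22, 31 and 19 after LPS and 22, 40 and 38 in controls (-0.46 ± 0.30, adjusted p = 0.402), and the difference between the responses did not pass (0.82 ± 0.42, adjusted p = 0.971). Neither relative was called between the genotypes after LPS, and these readings, at 11 to 60, are dim. With intensities under 20 raised to 20, the Rcan3 and Rcan2 calls were lost (adjusted p = 0.0607 and 0.222 for Rcan3 in knockout and wild-type, 0.124 for Rcan2). Each gene's other probe set was dimmer still and was not called. It gave -0.07 ± 0.16 in knockout and 0.12 ± 0.16 in wild-type spleen for Rcan3, and -0.20 ± 0.24 and 0.03 ± 0.24 for Rcan2. With the mean of all probe sets of a gene, the wild-type calls were lost (adjusted p = 0.123 for Rcan3 and 0.0877 for Rcan2). Rcan3 was lost in knockout spleen without knockout LPS 1 (0.0677), and in wild-type spleen without wild-type LPS 2 (0.079) or 3 (0.139) or wild-type control 2 (0.0968) or 3 (0.0809). Rcan2 was lost without wild-type LPS 1 (0.0673) or 3 (0.139) or wild-type control 1 (0.0935) or 2 (0.0999).
Ppp3cc, the third catalytic subunit, read 152, 125 and 171 in knockout LPS and 32, 119 and 109 in knockout control (0.99 ± 0.43, adjusted p = 0.184). It read 114, 142 and 195 in wild-type LPS and 79, 83 and 112 in wild-type control (0.70 ± 0.43, adjusted p = 0.459), with no overlap in either genotype. The dimmer Ppp3cc probe set read 85, 83 and 124 in knockout LPS and 44, 71 and 48 in knockout control. Its LPS difference was 0.85 ± 0.25 in knockout spleen, without overlap, and was not called (adjusted p = 0.05). In wild-type spleen it was 0.19 ± 0.25, with overlap (adjusted p = 0.789). After LPS every knockout array was above every wild-type array by this set (0.66 ± 0.25, adjusted p = 0.447). The brighter set overlapped there (0.01 ± 0.43).

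Among 13 measured NFAT factors, kinases and transport factors, 1 rose and 0 fell in knockout spleen and 0 rose and 0 fell in wild-type spleen. Their median was -0.37 and -0.14. Csnk1d, a casein kinase, rose in knockout spleen, at 939, 1174 and 800 after LPS and 619, 491 and 591 in controls (0.77 ± 0.22, adjusted p = 0.0441), but the mean of all its probe sets gave 0.01 (adjusted p = 0.988). That call was lost in 18 of 24 alternatives, among them leaving out any of knockout LPS 1, 2 or 3, knockout control 1, 2 or 3, wild-type LPS 2 or 3 or wild-type control 1, where the adjusted p ran from 0.0542 to 0.137. Nfat5, which answers to osmotic stress and is not regulated by calcineurin, read 111, 63 and 133 in knockout LPS and 95, 137 and 172 in knockout control, against 220, 63 and 62 in wild-type LPS and 272, 278 and 113 in wild-type control, and was not called (adjusted p = 0.706 and 0.302). Nfatc4 stayed between 23 and 42 in its representative set and was not called (adjusted p = 0.354 and 0.725).

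Of 9 measured genes of calcium release, entry and clearance, 0 rose and 1 fell in knockout spleen and none passed in wild-type spleen (median -0.14 and -0.60). Itpr3, a calcium release channel of the endoplasmic reticulum, read 122, 171 and 136 in knockout LPS and 203, 710 and 502 in knockout control and fell (-1.56 ± 0.42, adjusted p = 0.0354). In wild-type spleen it read 258, 204 and 179 after LPS and 335, 410 and 717 in controls (-1.13 ± 0.42, adjusted p = 0.163). Of 6 other transcription regulators on which calcineurin acts, 1 fell in knockout and 0 in wild-type spleen. That gene was Tfeb, a regulator of lysosome genes, at 100, 131 and 119 in knockout LPS and 203, 234 and 288 in knockout control (-1.04 ± 0.29, adjusted p = 0.0379). The Itpr3 call was lost without knockout LPS 1, 2 or 3, knockout control 2 or 3, wild-type LPS 2 or 3 or wild-type control 2 (adjusted p from 0.0513 to 0.124). The Tfeb call was lost without knockout LPS 1, 2 or 3, knockout control 2 or 3 or wild-type LPS 3 (0.0585 to 0.143), and also with the arrays shifted to one median (0.105).

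The 18 genes known as NFAT targets, all measured, had 6 rises and 0 falls in knockout spleen and 5 rises and 0 falls in wild-type spleen, with medians of 0.26 and 0.41 against -0.06 and -0.03 over all genes. Of all genes, 5.54% rose and 9.71% fell in knockout spleen, and 3.93% rose and 4.16% fell in wild-type spleen. The list was written knowing earlier results of these data. Many of these answer to other LPS-driven factors too. Ptgs2, the inducible cyclooxygenase, read 381, 260 and 576 in knockout LPS and 8, 12 and 10 in knockout control (5.29 ± 0.37, adjusted p = 2.14e-05). It read 150, 65 and 142 in wild-type LPS and 13, 8 and 10 in wild-type control (3.46 ± 0.37, adjusted p = 0.000519). All Ptgs2 controls read under 20, so the size of its rise depends on how such values are treated. With them raised to 20 it was 4.27 in knockout and 2.48 in wild-type spleen, and with 16 added to every intensity 3.95 and 2.29, and it passed in each case.
Il2ra, the alpha chain of the interleukin 2 receptor, read 645, 356 and 397 in knockout LPS and 16, 35 and 19 in knockout control (4.35 ± 0.35, adjusted p = 4.67e-05), and 94, 136 and 193 in wild-type LPS and 24, 20 and 21 in wild-type control (2.65 ± 0.35, adjusted p = 0.0016). Ifng, interferon gamma, rose in knockout (3.46 ± 0.36, adjusted p = 0.000258) and wild-type spleen (4.28 ± 0.36, adjusted p = 0.000102). Its controls read 12 to 18, and with 16 added to every intensity the rises were 2.60 in knockout and 3.22 in wild-type spleen. For Il2ra, with controls at 16 to 35, they were 3.60 in knockout and 2.01 in wild-type spleen. Tnf read 121, 145 and 120 in knockout LPS and 66, 111 and 72 in knockout control and did not pass (0.67 ± 0.29, adjusted p = 0.178), whereas in wild-type spleen it read 272, 427 and 322 after LPS and 70, 44 and 88 in controls and rose (2.37 ± 0.29, adjusted p = 0.00112). The difference between those responses did not pass (-1.70 ± 0.41, adjusted p = 0.408).

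Il10, an anti-inflammatory cytokine, was the 1 pathway gene called between genotypes after LPS. It read 305, 215 and 214 in knockout LPS and 79, 89 and 55 in wild-type LPS (1.73 ± 0.23, adjusted p = 0.0173, higher in 3 of 3 mice), with 12 to 17 in all controls. The rise was 4.05 ± 0.23 in knockout (adjusted p = 7.6e-06) and 2.36 ± 0.23 in wild-type spleen (adjusted p = 0.000293), and the difference of these rises did not pass (1.69 ± 0.33, adjusted p = 0.272). Since all Il10 controls read under 20, these sizes too depend on the treatment of low values. The rise was 3.59 in knockout and 1.87 in wild-type spleen with such values raised to 20, and 3.07 and 1.56 with 16 added to every intensity, and it passed in each case. The genotype call was lost without knockout LPS 1 (0.0712), 2 (0.0537) or 3 (0.0595) or wild-type LPS 2 (0.0589) or 3 (0.0672), and with the LPS arrays fitted alone (0.0627).
A further 2 targets passed in knockout spleen and not in wild-type spleen, and for neither did the difference between the responses pass. The immune checkpoint gene Ctla4 read 329, 130 and 408 in knockout LPS and 19, 88 and 52 in knockout control (2.55 ± 0.61, adjusted p = 0.0208), and 126, 47 and 105 in wild-type LPS and 66, 55 and 32 in wild-type control (0.81 ± 0.61, adjusted p = 0.575), with an adjusted p of 0.96 for the difference of the responses. Csf2, the growth factor GM-CSF, read 37, 46 and 63 in knockout LPS and 20, 31 and 17 in knockout control (1.12 ± 0.28, adjusted p = 0.026), and 24, 25 and 39 in wild-type LPS and 21, 17 and 19 in wild-type control (0.60 ± 0.28, adjusted p = 0.293), with an adjusted p of 1 for the difference of the responses. Ctla4 was lost without knockout LPS 1 (0.084) or 3 (0.0833), and Csf2 without knockout LPS 2 (0.0561) or 3 (0.105) or knockout control 1 (0.0609) or 3 (0.0889). Without the 3 arrays high in pancreas transcripts the Ctla4 difference was 1.56 (adjusted p = 0.217) and that of Csf2 0.62 (0.314).
The T cell cytokines Il2, Il3, Il4, Il5 and Il13 read 9 to 23 in all 12 arrays, and their means lay between the 7.8th and the 24.3rd percentile of all probe sets. None passed in either genotype, with differences from -0.45 ± 0.22 to 0.16 ± 0.19. At this level a fall or a small change could go unseen with these probe sets. Ptgs2, Il10 and Ifng rose from controls as dim (8 to 13, 12 to 17 and 12 to 18), and no such rise was read for these cytokines. Egr2 and Egr3, factors induced by calcineurin in T cells, did not pass in either genotype, with Egr2 at 0.38 ± 0.35 in knockout and 0.13 ± 0.35 in wild-type spleen and Egr3 at 0.13 ± 0.23 in knockout and -0.07 ± 0.23 in wild-type spleen.

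**Figure D4:**
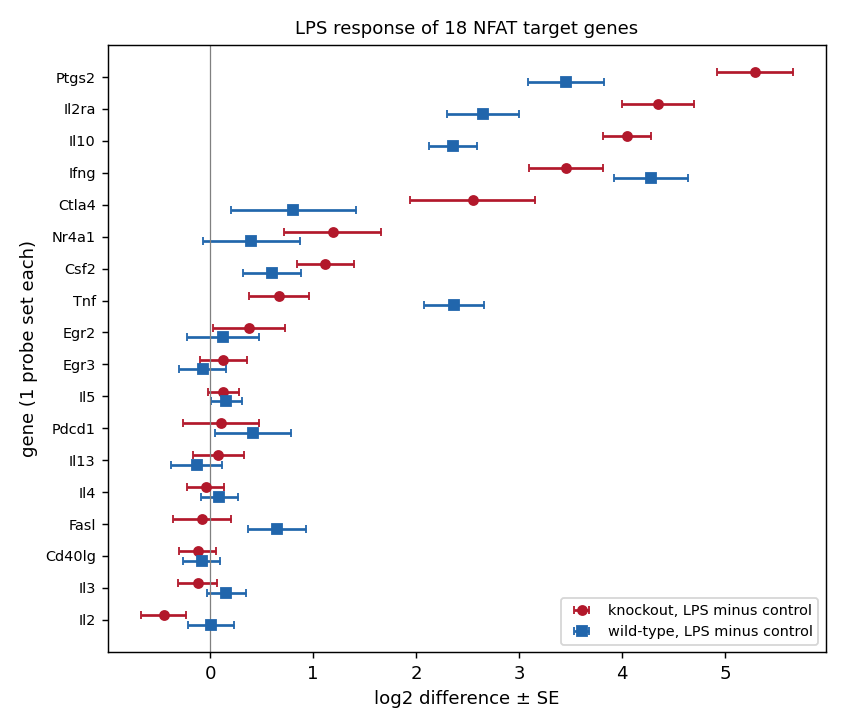
Log2 LPS response with limma's standard error of 18 NFAT target genes in knockout (red circles) and wild-type spleen (blue squares). Ptgs2, Il2ra, Il10 and Ifng lie at 2.36 or more in both genotypes, Tnf lies at 0.67 in knockout and 2.37 in wild-type spleen, and the dim T cell cytokine genes Il2, Il3, Il4, Il5 and Il13 lie between -0.45 and 0.16.

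The genes whose profile was most like that of Rcan1 were ranked by Pearson correlation of log2 intensity with 1416600_a_at over the 12 arrays, among 8098 genes above the 40th percentile of mean intensity. The first 10 were Ehd3 (r = 0.94), Cdr2l (0.93), Zfp703 (0.91), Spry2 (0.89), Prickle1 (0.88), Sh3gl1 (0.88), Cd93 (0.88), Hs6st1 (0.88), Ccn1 (0.87) and Zbtb44 (0.87). For these 10 r is a description, since the arrays form groups and the genes were picked for it. All 10 had their highest group mean in knockout LPS. In all 10 the knockout LPS arrays lay above the wild-type LPS arrays, as in 8.08% of all probe sets. By limma 7 of 10 were called higher in knockout LPS than in knockout control (5.54% of all genes). Over wild-type LPS 2 of 10 were called higher (0.218% of all genes). Nothing is read from these counts, since the genes were picked for this profile.
Ehd3, which acts in membrane recycling, read 389, 532 and 413 in knockout LPS and 139, 206 and 253 in knockout control, against 181, 190 and 153 in wild-type LPS and 188, 196 and 254 in wild-type control. Spry2, an inhibitor of growth factor signalling to ERK, read 96, 177 and 84 in knockout LPS and 25, 30 and 40 in knockout control, against 42, 28 and 48 in wild-type LPS and 32, 28 and 35 in wild-type control. Ccn1, a matrix protein gene, read 147, 164 and 152 in knockout LPS and 22, 44 and 32 in knockout control, against 28, 46 and 49 in wild-type LPS and 23, 28 and 45 in wild-type control. As for Rcan1, the second knockout LPS mouse was the highest array for 9 of the 10, Zbtb44 being the exception. The genes were picked to follow Rcan1 over these same arrays, so a shared highest group and array are largely built into the choice. Deviations from the group means, which leave the group differences out, correlated with those of Rcan1 at 0.87 for Cd93, 0.84 for Sh3gl1 and 0.11 for Zbtb44. The others were 0.74 for Hs6st1, 0.73 for Zfp703, 0.61 for Ehd3, Cdr2l and Spry2, 0.48 for Prickle1 and 0.39 for Ccn1. These deviations are part of the correlation that picked the genes, so the values are in part selected too.

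**Figure D5:**
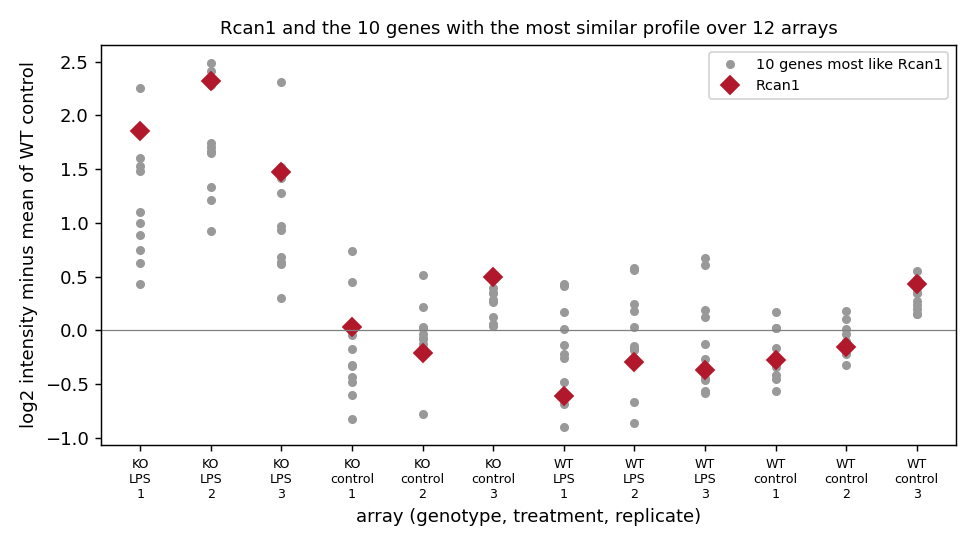
Log2 intensity minus the mean of wild-type control, per array, for Rcan1 (red diamonds) and the 10 genes with the highest correlation to it over the 12 arrays (grey circles). In the 3 knockout LPS arrays on the left all of these genes are above their wild-type control mean, and in the other arrays they scatter around it.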

How the data were processed

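Spleen RNA (5 µg per mouse) was hybridized to Affymetrix MOE430A 2.0 arrays, and the deposited value is an intensity per probe set, made by the authors with RMA in the R affy package per the series' design text and the submitters' processing notes. No version is given in the sources used here. The intensities are whole numbers on a linear scale with array medians from 47 to 63, so the arrays do not share a distribution. They were log2-transformed, 64 control probe sets were left out of 22690, and a model with 4 group means was fitted to 22626 probe sets with limma 3.58.1 in R 4.3.3 (lmFit, eBayes, two-sided, Benjamini-Hochberg adjustment per contrast over all probe sets, threshold 0.05, 8 residual degrees of freedom). Groups came from the sample titles, and the number of arrays limits the precision.

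The platform's gene table named 1 gene for 20380 probe sets, several for 691 and none for 1555. For a listed gene, the brightest probe set on average was used, and one whose ID ends in _x_at was passed over if the gene had any other. Members, lists and tests were chosen with earlier results of these data known. From each list and contrast up to 6 called genes with the largest difference are named, beside Ppp3cc, Rcan2, Rcan3, Nfatc4, Nfat5 and the 10 genes most like Rcan1. The fit was run on simulated data with independent noise for each probe set. That setting has no effects shared over an array, such as pancreas transcripts, so it cannot tell how the fit handles them. Promoter sequences are RefSeq's, GRCm38.p6. Alternatives covered a replicate block, variance model, array weights, scaling, dim probe sets, floor, pseudocount, groups in the fit and arrays left out.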

Additional observations from a re-analysis of the deposited data

Results flagged for a closer look

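Rcan1 moved in opposite directions in the 2 genotypes by probe set 1416600_a_at. All knockout LPS arrays (646 to 1168) lay above all knockout controls (201 to 329), whereas all wild-type LPS arrays (153 to 190) lay below all wild-type controls (193 to 315). The LPS responses differed by 2.20 ± 0.39 on the log2 scale. No p-value is given for it, because Rcan1 was chosen with these values known, and limma called 0 of 22626 probe sets in that contrast. The wild-type part rests on a gap of 190 against 193, and the other Rcan1 probe set did not have it (54 to 74 in wild-type LPS, 17 to 98 in wild-type control).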

How the results depend on the processing

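The Rcan1 excess of knockout over wild-type after LPS ran from 2.09 to 2.51 in 24 alternatives, its LPS response in knockout spleen from 1.55 to 2.16, and the difference of its responses from 1.89 to 2.66 in 23. Many of these settings could not change a Rcan1 difference. The replicate block, the variance model, leaving out dim probe sets, the floor and the fit of 2 groups alone leave it unmoved. So does leaving out arrays of groups outside the comparison, and the ranges come from the remaining settings. The mean of both Rcan1 probe sets gave 2.16 for the knockout response and 0.04 for the wild-type response. Without the 3 arrays high in pancreas transcripts the genotype difference in controls was -0.35 and the difference of the responses 2.66. With single arrays left out, the wild-type response ran from -0.56 to -0.21, the difference in controls from -0.09 to 0.32 and the difference of the responses from 1.98 to 2.41. Of 18 pathway calls named, 9 held under every alternative and 9 were lost under at least 1.

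Counts of calls moved more. Of all probe sets, the 72 called between genotypes after LPS became 19 with a replicate block, 46 with an intensity trend and robust prior, 2063 with array quality weights, 43 without dim probe sets, 130 without the pancreas-high arrays, 37 without the 2 arrays of male pattern, 0 with only the 2 groups compared, and 4 (without wild-type LPS 2) to 108 with single arrays left out. The difference of the responses, 0, became 1 with the trend, 233 without the pancreas-high arrays, 11 without the male-pattern arrays and 0 to 1 with single arrays left out. The controls, 0, gave 348, 12 and 0 to 1 in the last 3 of these settings. The wild-type LPS response, 1491, became 2912 with weights, 740 without the male-pattern arrays and 565 (without wild-type LPS 3) to 1906. The knockout LPS response, 2869, became 1558 with only its 2 groups, 3945 with weights and 2152 with the floor. With single arrays left out it ran from 1485 (without knockout LPS 1) to 3073. Not every setting is listed for each count. Of pathway genes, the 1 called between genotypes after LPS became 0 with the replicate block or only 2 groups, 6 with weights, 2 with the mean of all probe sets and 0 to 2 with single arrays left out. The 7 of the wild-type response became 12 with weights, and the 10 of the knockout response became 5 with the floor or only 2 groups and 5 to 11 with single arrays left out. The cause was not tested for any of these. On one median the share of higher calls was 60.7% in knockout and 62.8% in wild-type spleen, against 40.4% and 51.4% as deposited.

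Same-numbered arrays of different groups share only a number. Over 18 pairs their deviations correlated from -0.58 to 0.63, over 0.1 in 6, and 4 of 12 arrays correlated best with their own number. With the block, Il10 after LPS had an adjusted p of 0.0648 and Csnk1d 0.0826. The limits are 3 mice per group, 1 time point, neighbouring organ transcripts in several arrays, sex patterns mixed in the wild-type controls, dim signals for Nfatc2, Rcan2, Rcan3 and 5 T cell cytokines and for the controls of Ptgs2, Il10 and Ifng, and Dusp1 readings that do not check the genotype labels.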
